A study of Homo sapiens with 9 samples.

Results

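The baseline transcriptome of control HepG2 cells is described here from the 3 libraries of the sgCtrl group, out of 9 libraries in the series. HepG2 is a human liver cancer cell line that is widely used as a stand-in for hepatocytes. The sgCtrl cells had been transduced with lentiCRISPRv2, which delivers Cas9 and a guide RNA, and their guide (sgAAVS168) cuts the AAVS1 locus. The other 6 libraries came from KEAP1 knockout (KO) cells, 3 made with the guide sgKEAP1-1 and 3 with sgKEAP1-2 in the same vector. All 9 libraries thus share Cas9, the vector and puromycin selection, all were collected 48 h after seeding, and none received siRNA. Each guide gave 1 pooled population rather than clones, and no untransduced HepG2 library was analysed here. Nothing in the sample descriptions says whether the 3 libraries of a group were grown from separate cultures, so their spread may be in part technical.

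The hepatocyte is the main secretory cell of the liver and releases albumin, apolipoproteins, clotting factors and complement into the blood. It also makes bile acids and cholesterol, stores and releases glucose, removes ammonia through the urea cycle and detoxifies drugs. A set of transcription factors that includes HNF4A, the FOXA factors and CEBPA maintains this identity. Hepatoblasts of the fetal liver express alpha-fetoprotein (AFP), IGF2 and DLK1 instead of part of the adult programme, and liver tumours often resume that expression.

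RNA was measured with QuantSeq, which gives 1 tag near the end of each polyadenylated transcript, so that CPM values (counts scaled to a common library total of 1e+06) follow transcript number and need no division by length. The counted reads on genes with an Entrez number came to 3758185, 3011644 and 3571428 in sgCtrl-1, sgCtrl-2 and sgCtrl-3, and 1 read equals 0.266, 0.332 and 0.28 CPM in them. The deposited counts had been filtered, since all 12798 features exceed 0.5 CPM in at least 3 of the 9 libraries. A gene without a row in these counts was therefore not analysed here, and its level is not known from them.

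The control guide is shown because it defines the group. Its 19 bases occur at 1 place in the GRCh37 genome, chr19:55627855-55627873 on the plus strand, followed there by the PAM that is printed in capitals.
sgAAVS168: ccagccgtagaggtgacccAGG
The site lies within PPP1R12C, a gene on the minus strand at chr19:55602282-55629005 that encodes a regulatory subunit of myosin phosphatase. It falls in an intron, between exon 1 (chr19:55628591-55629005) and exon 2 (chr19:55624033-55624163) of the canonical transcript. The level of PPP1R12C was 27.1, 21.9 and 24.4 CPM in the 3 sgCtrl libraries and 24.5 to 30.2 CPM in the 6 KEAP1 KO libraries, so the groups overlapped. A count of tags does not show whether the intron was cut. KEAP1 itself, the adaptor that marks NRF2 for degradation, stood at 63.6, 87.0 and 85.7 CPM in sgCtrl and at 54.6 to 85.1 CPM in the KO libraries, and these ranges overlap as well.

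Promoters of 4 liver genes are shown because they stand among the 100 highest genes of the control cells and hold a short HNF1 or HNF4 sequence. They are RefSeq promoters of build GRCh38.p14, from 250 bases before to 50 bases after the annotated start, written in the direction of the gene, and the matched letters are in capitals. The ALB promoter is at chr4:73404037-73404336 (plus strand) and the AFP promoter at chr4:73435971-73436270 (plus strand). The FGA promoter is at chr4:154590693-154590992 (minus strand) and the AHSG promoter at chr3:186612810-186613109 (plus strand). ALB, AFP and FGA hold GTTAATNAT, a core of the HNF1 site, and AHSG holds CAAAGTCCA, a core of the HNF4 site, with FGA and AHSG carrying it on the opposite strand.
ALB: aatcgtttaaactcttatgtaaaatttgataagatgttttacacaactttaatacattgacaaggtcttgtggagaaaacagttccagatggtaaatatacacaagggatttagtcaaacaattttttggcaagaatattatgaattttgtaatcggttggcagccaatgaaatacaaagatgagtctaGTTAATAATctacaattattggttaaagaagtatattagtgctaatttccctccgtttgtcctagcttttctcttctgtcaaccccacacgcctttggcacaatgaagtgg
AFP: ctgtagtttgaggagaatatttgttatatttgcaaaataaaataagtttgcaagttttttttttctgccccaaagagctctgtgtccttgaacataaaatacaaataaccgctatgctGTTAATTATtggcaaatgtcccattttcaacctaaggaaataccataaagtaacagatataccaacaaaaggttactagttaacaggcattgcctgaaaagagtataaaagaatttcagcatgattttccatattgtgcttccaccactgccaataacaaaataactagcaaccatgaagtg
FGA: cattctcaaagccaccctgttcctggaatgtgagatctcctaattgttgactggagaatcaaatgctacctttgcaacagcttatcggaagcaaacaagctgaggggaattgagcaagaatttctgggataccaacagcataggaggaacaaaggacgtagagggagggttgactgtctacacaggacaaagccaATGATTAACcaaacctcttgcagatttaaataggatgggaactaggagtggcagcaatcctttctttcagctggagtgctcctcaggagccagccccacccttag
AHSG: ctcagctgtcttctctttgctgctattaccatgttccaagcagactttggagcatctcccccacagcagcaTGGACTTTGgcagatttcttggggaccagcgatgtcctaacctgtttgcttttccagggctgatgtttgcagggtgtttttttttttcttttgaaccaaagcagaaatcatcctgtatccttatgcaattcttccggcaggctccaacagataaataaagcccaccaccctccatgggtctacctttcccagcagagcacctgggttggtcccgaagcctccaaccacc
The matches begin 61, 132, 55 and 179 bases before the start in ALB, AFP, FGA and AHSG, in that order. Both strands were searched, and the letters of the 5 motifs were counted as a description without a test. The HNF1 letters were present in 3 of the 74 promoters that were found for the 100 highest genes (4.05%), in 4 of 42 for expressed genes of the liver-secreted lists (9.52%, with LIPC as the other) in 43 of 9398 for all genes of the counts (0.458%) and in 205 of 27305 promoters in all (0.751%). The HNF4 letters were present in 1 of 74 (1.35%), 2 of 42 (4.76%, AHSG and F10), 29 of 9398 (0.309%) and 98 of 27305 (0.359%). The C/EBP letters TTGCGCAA were in 0 of the 74, in 0.192% of the 9398 and in 0.128% of all promoters. The antioxidant response element letters TGACNNNGC, which NRF2 recognises, were in 6 of 23 promoters of the NRF2 list (26.1%, CBR1, GCLM, GPX2, MAFF, PGD and TXNRD1), in 14.9% of those of the 100 highest genes, in 15.4% of the 9398 and in 13.6% of all. The SREBP letters TCACNCCAC were in 1 of 15 promoters of cholesterol genes (6.67%, SREBF2), in 1.14% of the 9398 and in 1.15% of all.

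Among the features with an Entrez number, albumin was the most abundant transcript of the control cells. No feature with a mitochondrially encoded symbol was found among them, so the ranks and read shares do not cover such transcripts. ALB, the main carrier protein of plasma, reached 13665, 15933 and 11079 CPM in sgCtrl-1 to sgCtrl-3, with a mean of 13559 ± 2429 (SD, n = 3), which is 1.36% of the counted reads. DHRS2, a short-chain dehydrogenase of mitochondria, ranked next with 9535, 7101 and 11657 CPM. The order of these 2 genes turned in sgCtrl-3, where DHRS2 exceeded ALB. The ribosomal genes RPS27A (7372 ± 346 CPM), RPL37A (6729.7 ± 173 CPM) and RPS29 (6575 ± 457 CPM) followed. RPS29 overlapped the range of RPL37A, while RPS27A was above RPL37A in all 3 libraries. The cytosolic chaperone HSP90AB1 (6186 ± 515 CPM), AFP (5985 ± 679.8 CPM) and the HDL component APOA2 (5966 ± 1127 CPM) were next and did not differ beyond their spread. Of the 30 highest genes, 13 encode cytosolic ribosomal proteins and 7 belong to the lists of liver-secreted proteins. Another 5 belong to no list, namely DHRS2, PEBP1 (a Raf kinase inhibitor), FN1 (fibronectin), ACTG1 (gamma actin) and TPT1 (translationally controlled tumour protein). Among the 100 highest, the counts were 37 ribosomal, 16 liver-secreted and 28 in no list.

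**Figure D1:**
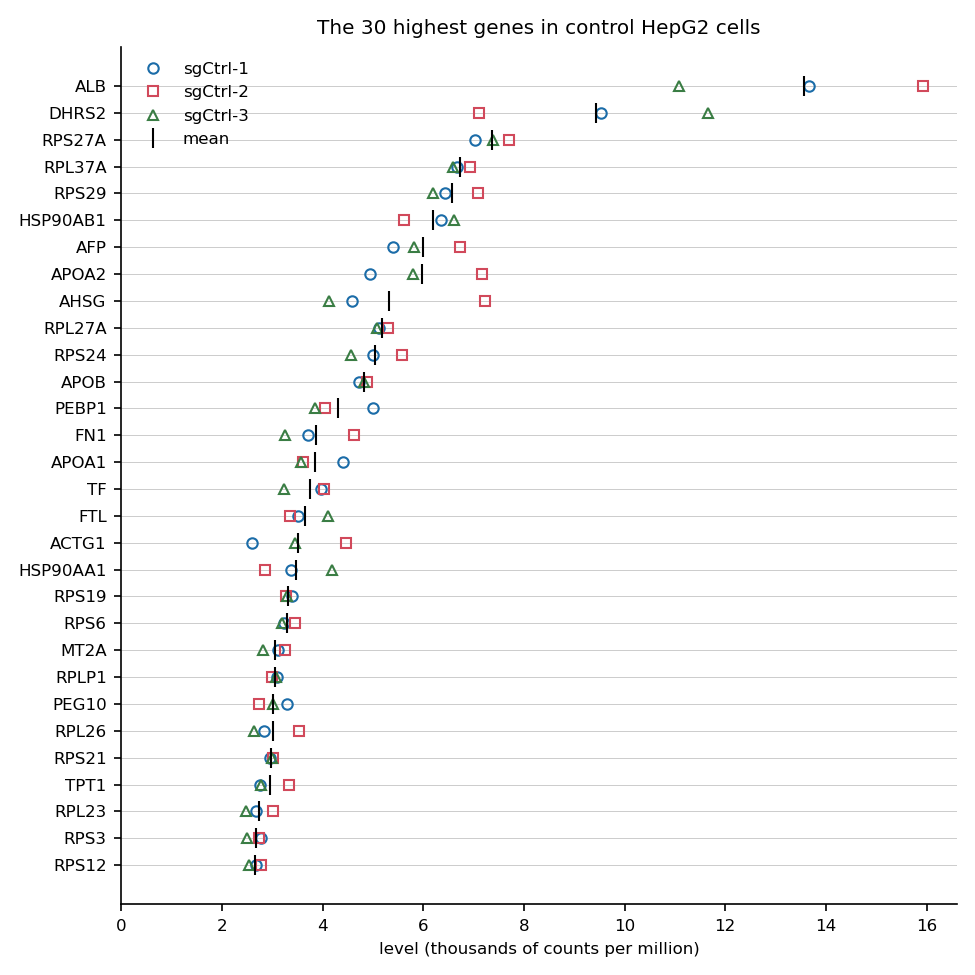
Level of the 30 genes with the highest mean in the 3 sgCtrl libraries, in units of 1000 CPM, with 1 symbol per library and a bar at the mean. The means of ALB and DHRS2 lie apart from the rest, and their libraries spread more widely than those of the ribosomal genes below them.

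The reads were spread over many genes. The 10 highest genes took 7.23 ± 0.393% of the reads, the 100 highest 25.5 ± 0.957% and the 1000 highest 58.6 ± 0.541% (SD, n = 3), and 620 genes together held 50% of them. Of 11746 features with a gene number, 8564 (72.9%) had a mean of at least 10 CPM, the level called expressed below, and the median was 26.7 CPM. A mean of 1000 CPM or more was reached by 111 features and one of 100 to 1000 CPM by 2023. At the low end, 153 features had at most 3 counts in each sgCtrl library and 21 had none in any of them. Protein-coding genes took 97.5% of the reads and long noncoding RNAs 1.02%. The 80 cytosolic ribosomal protein genes summed to 114201 ± 6629.98 CPM, or 11.4% of the reads, and tags from near-identical ribosomal pseudogenes may be divided between gene and copy.

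Plasma carriers and acute-phase proteins formed the highest of the liver lists, with 21 of the 24 measured members expressed and a sum of 34961, 41067 and 30645 CPM. Beside ALB and AFP, AHSG (fetuin-A, an inhibitor of mineral deposition) reached 4578, 7237 and 4126 CPM, and sgCtrl-2 was the highest. TF (transferrin, the iron carrier) was at 3976, 4023 and 3229.8 CPM, and AGT (angiotensinogen) at 2019.6, 2036 and 1785 CPM. The retinol carrier RBP4 reached 788 ± 39.5 CPM and its partner TTR (transthyretin) 385 ± 46.3 CPM. Several proteins that are abundant in plasma were low. SERPINA1 (alpha-1 antitrypsin) had 35.1, 24.2 and 30.5 CPM, HP (haptoglobin) had 65.2, 32.5 and 57.1 CPM, and SERPINA3 (alpha-1 antichymotrypsin) had 1.61 ± 0.943 CPM. The acute-phase genes CRP, SAA1 and SAA2 were not analysed here.

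Apolipoproteins were expressed almost as broadly, with 17 of 20 measured members at 10 CPM or more and a sum of 19705 ± 909.8 CPM. APOA2 (4939, 7171 and 5787 CPM) and APOA1 (4396, 3601 and 3575 CPM) are the main proteins of HDL, and APOB is the structural protein of VLDL and LDL. APOB was the steadiest of the 7 liver-secreted genes among the 30 highest, with 4727, 4890.4 and 4825 CPM. APOH stood at 2445 ± 137 CPM and APOC1 at 1183 ± 90.3 CPM, while APOE reached 189 ± 7.06 CPM. MTTP, which loads lipid onto APOB, had 125, 154 and 129 CPM, so that APOB exceeded it 35.6 ± 3.32-fold (SD of the ratio, n = 3).

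Clotting and complement genes were led by the fibrinogen chains. FGG had 1559.8, 1273 and 1169 CPM, FGB 1530.3, 1013 and 1271 CPM and FGA 1481, 1008 and 1134 CPM. The 3 chains, which assemble in equal number, thus overlapped, with a ratio of FGB to FGA of 1.05 ± 0.0599. Complement C3 reached 1168 ± 202 CPM and prothrombin (F2) 685 ± 38.8 CPM. Of 28 measured members 20 were expressed, against 72.9% of all features. The low ones included C6 (1.14 ± 0.399 CPM) and F13B (1.32 ± 0.703 CPM).

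Hepatocyte transcription factors were expressed at moderate levels, with 26 of 29 measured members at 10 CPM or more and a median of 50.6 CPM against 26.7 CPM over all features. MLXIPL (ChREBP, the glucose-responsive activator of lipogenesis) led with 401, 354 and 382 CPM. HNF4A, the central nuclear receptor of hepatocyte identity, had 243 ± 28.9 CPM, and CEBPA had 247, 201 and 221 CPM. The nuclear receptor NR2F1 (187 ± 12.4 CPM) and TBX3 (194, 162 and 160.4 CPM), a T-box factor of the early liver bud, were next. Within families, HNF4A exceeded HNF4G 68.6 ± 18.7-fold and FOXA2 exceeded FOXA1 2.02 ± 0.431-fold. GATA6 was low at 1.33, 0.664 and 4.76 CPM, and stood under 3 counts in sgCtrl-2 only.

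Several fetal genes were abundant beside the adult secretory ones. Of 21 measured oncofetal and progenitor genes 16 were expressed, a share close to the 72.9% of all features. AFP had 5409, 6735 and 5813 CPM, and ALB exceeded it 2.53-, 2.37- and 1.91-fold in the 3 libraries. PEG10, an imprinted gene derived from a retrotransposon, had 3295, 2734 and 3011 CPM. GPC3 (glypican-3, a surface proteoglycan used as a marker of hepatocellular carcinoma) had 1989, 1894 and 1658 CPM, and the fetal growth factor IGF2 1711, 1905 and 1310.4 CPM. The chromatin protein HMGA2 reached 442 ± 24.3 CPM. DLK1 (254 ± 12.7 CPM), the fetal RNA-binding protein IGF2BP1 (267 ± 32.3 CPM) and LIN28B (55.2 ± 5.46 CPM), which blocks maturation of let-7, were expressed in all 3 libraries. TERT, the catalytic subunit of telomerase, had 4.32 ± 0.933 CPM and SALL4, a stem-cell factor, 1.33, 1.33 and 5.04 CPM.

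Of 17 measured genes of adult drug metabolism 11 were expressed, against 72.9% of all features, and 22 of the 39 listed genes were not analysed here. The sulfotransferases SULT1A1 (265, 299.8 and 279 CPM) and SULT2A1 (151, 284 and 167 CPM) led together with POR, the electron donor of cytochromes (243 ± 21.2 CPM), the esterase CES2 (213 ± 29.8 CPM) and ALDH2 (169 ± 4.13 CPM), which clears acetaldehyde. The measured cytochromes were low. CYP3A7, the fetal member of its family, had 3.46, 6.97 and 2.24 CPM, CYP3A5 had 1.6, 3.32 and 2.52 CPM, and CYP1A1 had 3.19, 2.99 and 0.840 CPM, so the ranges of CYP3A7 and CYP3A5 overlapped. UGT1A1, which conjugates bilirubin, had 0, 1 and 2 counts in the 3 libraries. Paralogs such as GSTA1 and GSTA2 or the SULT1A genes share sequence, and the division of their tags is uncertain.

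Amino acid catabolism was uneven along its pathways. Of 25 measured members 16 were expressed, against 72.9% of all features. GLUD1 (glutamate dehydrogenase, 309 ± 17.6 CPM), GLUL (glutamine synthetase, 243 ± 18.5 CPM), HGD (206 ± 5.47 CPM) and MAT1A (142 ± 13.8 CPM) were among the 5 highest. The urea cycle enzymes were lower. CPS1, its entry enzyme, had 25.3, 43.2 and 33.3 CPM, ASS1 had 31.7, 31.9 and 26.3 CPM and ASL 15.4, 26.6 and 22.1 CPM. ARG1, the liver arginase that releases urea, had 2.93, 9.30 and 1.96 CPM, whereas the mitochondrial arginase ARG2 had 20.8, 35.9 and 17.9 CPM and exceeded it in each library. OTC was not analysed here.

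Bile acid genes showed the same contrast between steps. CYP27A1, of the acidic pathway, reached 332, 253 and 307 CPM, while CYP7A1, the rate-limiting enzyme of the classical pathway, had 6.92, 4.32 and 8.96 CPM and CYP8B1 7.40 ± 0.813 CPM. KLB (192 ± 50.4 CPM) and FGFR4 (129.6 ± 14.2 CPM), which together receive FGF19, and the repressor NR0B2 (SHP, 96.6 ± 17.4 CPM) were expressed. BAAT, which conjugates bile acids, was at the floor with 3, 3 and 2 counts. Of 17 measured members 11 were expressed, against 72.9% of all features.

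Glycolysis was expressed in 17 of 21 measured members, against 72.9% of all features. GAPDH had 2329.8, 3217 and 2263 CPM, ENO1 1473, 1797 and 1546 CPM, LDHA 699.8, 847 and 732 CPM, PKM 729, 732 and 680.4 CPM and ALDOA 596, 910.1 and 628 CPM. The glucose transporter SLC2A1 (GLUT1) exceeded the hepatocyte transporter SLC2A2 (GLUT2) 3.95-, 5.52- and 4.20-fold. PKLR, the liver form of pyruvate kinase, was not analysed here. Among gluconeogenic genes IGFBP1, an IGF-binding protein that insulin represses, led with 503, 1514 and 506 CPM. The mitochondrial PCK2 (182, 198 and 193 CPM) was steady, while the cytosolic PCK1 had 22.1, 84.0 and 22.4 CPM and G6PC1, the last step of glucose release, 12.8, 90.3 and 7.84 CPM. In both of these the value of sgCtrl-2 stood far above the other libraries. FBP1 was low at 3.19, 0.664 and 1.68 CPM.

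Nearly all measured genes of lipid synthesis were expressed. LSS, CYP51A1 and INSIG1 of the cholesterol list and ACACA and THRSP of the fatty acid list were not analysed here. All 20 measured cholesterol synthesis genes were at 10 CPM or more, with a sum of 4779, 4887 and 5081 CPM. The thiolase ACAT2 had 510.4, 587 and 566 CPM, HMGCS1 462, 452 and 466 CPM and FDFT1 (squalene synthase) 382, 414 and 403 CPM. For fatty acid synthesis 19 of 20 members were expressed, led by the desaturase SCD (945 ± 78.5 CPM), the lipid droplet protein PLIN2 (674 ± 290.5 CPM), FASN (584 ± 95.6 CPM) and the acyl-CoA synthetases ACSL4 (538 ± 73.4 CPM) and ACSL3 (457 ± 69.8 CPM). PLIN2 was uneven, with 426, 994 and 604 CPM. Fatty acid oxidation was expressed as widely, in 22 of 23 members, led by the fatty acid carrier FABP1 (1187 ± 95.6 CPM) and the electron transfer protein ETFB (957 ± 122 CPM).

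**Figure D2:**
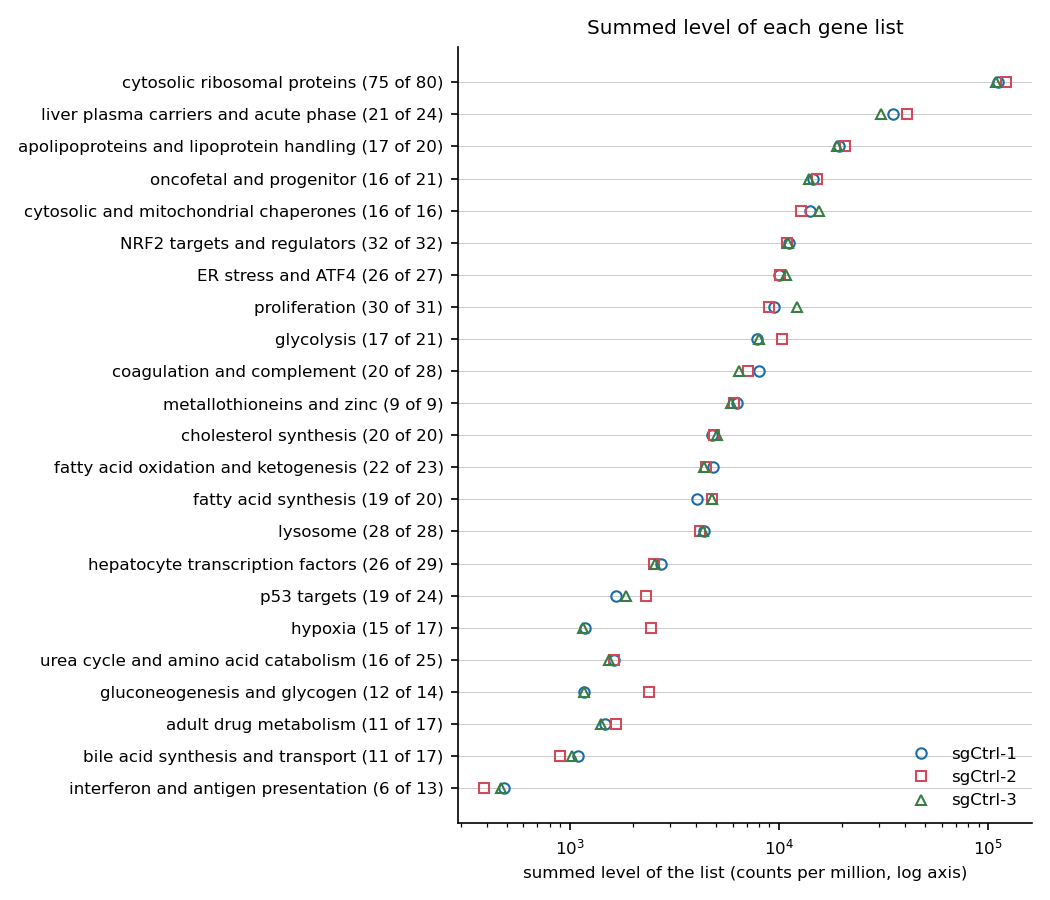
Summed level of each gene list in CPM on a log axis, with 1 symbol per sgCtrl library, and beside each name the number of members at 10 CPM or more out of those measured. Ribosomal proteins, plasma carriers and apolipoproteins are the highest, and sgCtrl-2 lies apart for hypoxia and for gluconeogenesis. IGFBP1 alone makes up 53.2% of the mean gluconeogenesis sum, and the median expressed member of that list was only 0.17 higher in sgCtrl-2 on the log2 scale.

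Protein-folding and stress genes were among the highest of the measured programmes. All 16 cytosolic and mitochondrial chaperones were expressed, led by HSP90AB1 (6346, 5610.2 and 6602 CPM), HSP90AA1 (3365, 2854 and 4179.8 CPM) and the mitochondrial chaperonin HSPD1 (1684, 1589.5 and 1737 CPM). Residents of the endoplasmic reticulum were also abundant. HSPA5 (BiP) had 1459, 1669 and 1703 CPM, HSP90B1 1527, 1630.0 and 1628 CPM, PDIA6 1239, 1223 and 1264 CPM, CALR 1088 ± 164 CPM and CANX 1066 ± 77.6 CPM. ATF4, the effector of the integrated stress response, had 518 ± 12.5 CPM, whereas the stress-induced factors DDIT3 (CHOP) and ATF3 had 13.5 ± 4.79 and 9.08 ± 2.50 CPM.

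Each of the 32 measured members of the NRF2 list, which holds target genes of NRF2 together with its regulators and partners, reached 10 CPM in every control library. FTL (ferritin light chain) had 3508, 3357 and 4102 CPM, the peroxidase PRDX1 1676, 1424 and 1601 CPM, the aldo-keto reductase AKR1C1 1218, 1055 and 753 CPM, FTH1 725, 756 and 821 CPM and NQO1 539, 508 and 507 CPM. FTL exceeded FTH1 4.76 ± 0.287-fold. NFE2L2, which encodes NRF2, had 272, 228 and 265 CPM. Members at the low end included AKR1B10 (27.4, 49.8 and 32.5 CPM) and HMOX1 (32.2, 41.2 and 39.2 CPM). AKR1C1 and AKR1C2 are near-identical, and their tags may be divided between them.

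Metallothioneins, which bind zinc and copper, were highly expressed, with MT2A at 3123, 3249.7 and 2817 CPM, MT1E at 1666, 1764 and 1609 CPM, MT1G at 770.1, 582 and 795 CPM and MT1F at 463, 288 and 357 CPM. These genes are close copies of each other and the division of their tags is uncertain, while the sum of the list was 6306, 6121 and 5865 CPM. Of 24 p53 targets 19 were expressed, against 72.9% of all features. GDF15, a stress-induced cytokine, led at 405, 1121 and 621 CPM. AEN (164 ± 7.46 CPM), MDM2 (155 ± 12.8 CPM), FDXR (127 ± 23.2 CPM) and TNFRSF10B (87.1 ± 14.6 CPM) were next. Interferon-related genes were the lowest programme, with 6 of 13 measured members expressed, IFITM3 in the lead (239.5 ± 40.0 CPM) and IRF9 at the floor (3, 1 and 3 counts). B2M, the light chain of MHC class I, had 7.72, 9.30 and 5.6 CPM.

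The control cells expressed the cell cycle programme in 30 of 31 measured members. TUBA1B (an alpha tubulin) had 2050.2, 2153 and 2965 CPM, TOP2A (topoisomerase II alpha) 2038, 1690.4 and 2756 CPM, the histone variant H2AZ1 627 ± 79.6 CPM, STMN1 399 ± 53.6 CPM and MCM3 376 ± 79.3 CPM. Cyclin D1 (CCND1) reached 291 ± 18.5 CPM. All 28 measured lysosomal genes were expressed, led by PSAP (690.2 ± 63.7 CPM), CD63 (667 ± 80.7 CPM), CTSB (476 ± 113 CPM), LAMP1 (352 ± 39.3 CPM) and CTSD (334 ± 16.7 CPM). Of the factors that control lysosome formation, TFE3 had 31.7 ± 3.13 CPM and TFEB 12.7 ± 1.39 CPM.

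The label of a hepatic cell line was checked against defining markers. All 10 hepatocyte markers were expressed, with SERPINA1 the lowest and ALB the highest. Of the bile duct markers 4 of 7 had a row, and all 4 were expressed, namely SOX9 (327 ± 62.8 CPM), KRT19 (229 ± 32.7 CPM), SPP1 (174 ± 31.3 CPM) and EPCAM (128 ± 11.3 CPM). The only endothelial marker with a row, LYVE1, had 0, 2 and 1 counts. Fibroblast markers were ACTA2 at 53.7 ± 11.7 CPM, PDGFRB at 7.93 ± 1.51 CPM and COL1A1 at 2.58 ± 2.16 CPM. Of the immune markers LYZ (lysozyme) was high at 964, 1753 and 964 CPM, while CD14 and CD68 had means of 7.29 and 4.25 CPM. The pan-leukocyte marker PTPRC and the 5 erythroid markers were not analysed here. In a bulk library, fewer cells of a type and less RNA per cell cannot be told apart.

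The 3 libraries agreed closely over the whole transcriptome, and sgCtrl-2 was the most distant. Across 11746 features, Pearson's r of log2(CPM + 1) was 0.983 between sgCtrl-1 and sgCtrl-3, and 0.975 for either with sgCtrl-2. These correlations are across genes, which are not independent replicates. The chi-square per degree of freedom, which would be near 1 for counting error alone, was 4.72 between sgCtrl-1 and sgCtrl-3, 10.2 between sgCtrl-1 and sgCtrl-2 and 10.5 between sgCtrl-2 and sgCtrl-3, so no library is a second reading of another. Among the 8016 features at 10 CPM or more in every sgCtrl library, 11 differed more than 2-fold in CPM between sgCtrl-1 and sgCtrl-3, but 96 and 82 did so between sgCtrl-2 and these libraries. The 50 highest genes had 44 in common among all 3 libraries, and the 10 highest had 7. The biological coefficient of variation, the spread beyond counting error as edgeR estimates it, was 13.8% in sgCtrl, 16.0% in sgKEAP1-1 and 19.1% in sgKEAP1-2.

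The spread fell with level down to a plateau. The median coefficient of variation was 30.5% for features of 1 to 10 CPM, 13.3% for 10 to 100 CPM, 9.20% for 100 to 1000 CPM and 9.24% at 1000 CPM or more, where counting error alone would give 26.1, 9.53, 4.10 and 1.32%. Counting error was therefore a larger part of the spread at 1 to 10 CPM than above 100 CPM. Above 100 CPM, differences between libraries made up most of the spread. The counting values are not corrected for the small number of libraries, so these parts are approximate. Among features at 10 CPM or more in every sgCtrl library, the 75 ribosomal genes had a median of 7.20%, 19 cholesterol synthesis genes 8.33% and 12 hypoxia genes 32.7%, against 11.7% over all 8016 of them.

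**Figure D3:**
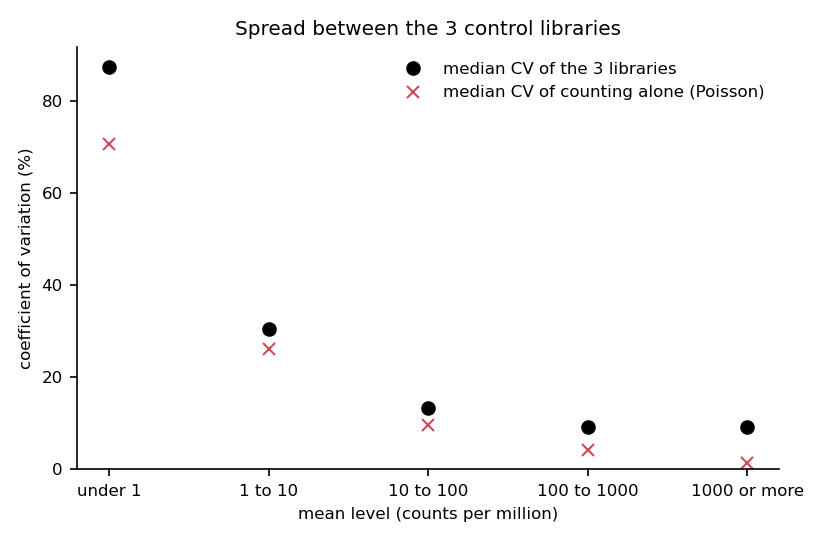
Median coefficient of variation of the 3 sgCtrl libraries by mean level in CPM, as points, beside the median expected from counting alone, as crosses. The points fall to 9.20% in the class from 100 CPM and stay level above it, while the crosses go on falling to 1.32%.

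Among the same 8016 features, 52 were over 2 times higher in sgCtrl-2 than the mean of the other libraries and 12 were lower by as much, and 5 of the 52 belong to the hypoxia list. At a mean of 50 CPM or more these counts were 26 and 3, with 4 hypoxia genes. A filter on the mean lets in genes that pass it only through sgCtrl-2, VEGFA among them. The 26 and the 4 are therefore in part set by the filter and add no support. The 10 genes of at least 50 CPM with the largest ratio of highest to lowest library included RABGGTB, NDRG1, CCL20, GPX3, ANKRD1, SERINC2, SCARNA22, IGFBP1 and SORL1, with ratios of 5.54 to 2.82, and sgCtrl-2 was the highest in all of these but SCARNA22. This small RNA was lowest there, with 74.8, 24.2 and 52.1 CPM. RABGGTB and SERINC2 were under 50 CPM in sgCtrl-1 and sgCtrl-3 and reached a mean of 50 CPM only through sgCtrl-2. How many of these genes were highest in sgCtrl-2 is therefore also in part set by the filter and adds no support. NDRG1, a gene induced by low oxygen, had 230.2, 712 and 173 CPM, and the chemokine CCL20 60.9, 247 and 90.2 CPM. Of the 16 hypoxia genes with a count in any sgCtrl library, with no filter on level, 15 were highest in sgCtrl-2, against 31.5% of all such features, and their median there was 1.13 higher on the log2 scale than the mean of the other libraries. The median over all features was -0.05 on that scale. For the 12 members at 10 CPM or more in every sgCtrl library the count was 11 and the median 0.75. CA9, LOX and ANKRD37 reached a mean of 10 CPM only through sgCtrl-2. CA9, a carbonic anhydrase that HIF-1 induces, had 6.12, 53.5 and 4.20 CPM, LOX (lysyl oxidase) 5.85, 49.5 and 7.56 CPM and VEGFA (an angiogenic growth factor) 33.5, 91.3 and 35.6 CPM. HIF1A itself had 63.3, 70.4 and 71.1 CPM and did not follow them. Glycolysis members were highest in sgCtrl-2 in 16 of 21 cases and ribosomal genes in 58 of 80, with medians 0.47 and 0.14 higher on the log2 scale. In sgCtrl-3, 25 of 31 proliferation genes were the highest of the 3 libraries, against 34.2% of all features, with a median 0.35 higher on that scale. The list of hypoxia genes summed to 1183, 2455 and 1153 CPM in sgCtrl, 1504, 2669 and 1681 CPM in sgKEAP1-1 and 1584, 2284 and 1541 CPM in sgKEAP1-2, so library 2 was the highest in each group. Proliferation genes summed to 9477, 8954 and 12251 CPM in sgCtrl, 9995, 5792 and 10959.9 CPM in sgKEAP1-1 and 8751, 6110.3 and 10934 CPM in sgKEAP1-2, and library 2 was the lowest in each group. The sample descriptions give same-numbered libraries of the 3 groups a common prefix without saying what it stands for. The part that such a shared origin has in these differences was not tested.

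**Figure D4:**
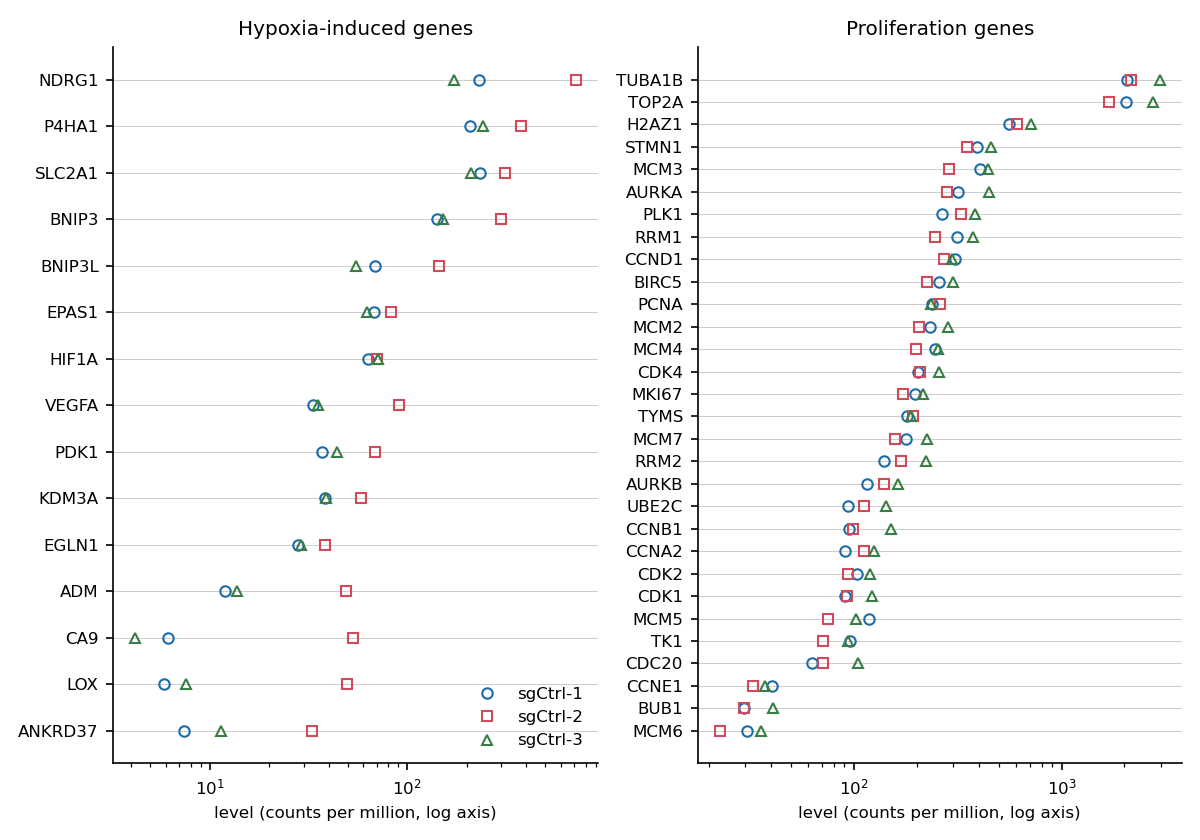
Level of the expressed hypoxia genes (left) and proliferation genes (right) in the 3 sgCtrl libraries, in CPM on log axes. The squares of sgCtrl-2 lie to the right for 14 of 15 hypoxia genes, and the triangles of sgCtrl-3 lie to the right for 24 of 30 proliferation genes.

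To show where the control transcriptome differed from that of cells without KEAP1, the 3 sgCtrl libraries were compared with the 6 KEAP1 KO libraries. Each guide gave 1 pooled population, and both KEAP1 guides were taken as 1 group. The p-values therefore measure the spread between libraries. They do not measure how far separately transduced control populations would differ. Of 11064 features tested with edgeR's quasi-likelihood test (Benjamini-Hochberg adjusted p under 0.05), 457 were higher in sgCtrl (4.13%) and 610 were lower (5.51%). Without sgCtrl-1 these counts were 226 and 381, and without sgCtrl-3 they were 258 and 367, against 345 and 516 without sgCtrl-2. A fit with a term for the replicate number gave 762 and 847. Fold changes below are of sgCtrl over KEAP1 KO on the log2 scale with the standard error, and their median over all features was 0.0045. The lists were chosen with earlier results of these data known, and their counts stand beside the 2 background shares as a description. The order of abundance was largely shared, since 44 of the 50 highest control genes were also among the 50 highest in sgKEAP1-1 and 41 in sgKEAP1-2. ALB ranked 5 in sgKEAP1-1 and 13 in sgKEAP1-2, and AFP 30 and 92.

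Liver-secreted genes were more often called higher in sgCtrl than the background share, while bile duct markers were lower in part. Of 24 plasma carriers 11 were higher and 1 was lower, of 20 apolipoprotein genes 9 and 1, and of 26 clotting and complement genes 6 and 1. ALB had 3424 to 7538 CPM in the KO libraries, with no overlap with sgCtrl, and a fold change of 1.35 ± 0.20 (adjusted p = 0.00107). AFP had 912 to 3053 CPM there (1.72 ± 0.35, adjusted p = 0.0147), and its call was lost without sgCtrl-2 or sgCtrl-3. TF (0.94 ± 0.13, adjusted p = 0.000257), APOC3 (an inhibitor of lipoprotein lipase, 1.32 ± 0.20, adjusted p = 0.000962) and KNG1 (kininogen, 1.63 ± 0.20, adjusted p = 8.18e-05) were also higher in sgCtrl. TTR (-0.64 ± 0.13, lost without sgCtrl-3) and the complement protease C1S (-1.62 ± 0.25) were lower in sgCtrl. APOB differed by 0.01 ± 0.10 and APOA2 by -0.36 ± 0.14, and neither passed the test, though APOA2 did without sgCtrl-2. The 4 measured bile duct markers summed to 811 to 916 CPM in sgCtrl and 2003 to 2779 CPM in the KO libraries, and 2 of them were called lower in sgCtrl, SPP1 (-2.88 ± 0.30, adjusted p = 0.000177) and KRT19 (-1.39 ± 0.18, adjusted p = 0.000203). SOX9 and EPCAM did not pass the test. LYVE1, the only measured endothelial marker, had 0 to 2 counts in sgCtrl and 4.84 to 13.0 CPM in the KO libraries. It was called lower in sgCtrl, but it passed the expression filter only through the KO libraries, so the call adds no support. The part of these markers in the other differences was not tested. Without sgCtrl-1 the number of plasma carriers called higher was 6, and without sgCtrl-2 that of apolipoprotein genes was 5.

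Of 29 hepatocyte transcription factors 6 were higher in sgCtrl and 1 was lower. ONECUT1 (1.63 ± 0.21, adjusted p = 9.85e-05), an early regulator of liver development, CREB3L3 (1.15 ± 0.20) and MLXIPL (0.75 ± 0.12) were higher, and ZBTB20, a repressor of AFP, was lower (-0.66 ± 0.17, adjusted p = 0.0171), a call that was lost without sgCtrl-1 or sgCtrl-3. HNF4A differed by 0.49 ± 0.11 (adjusted p = 0.0101), and its call was lost without the same libraries. Without sgCtrl-1 the count of higher factors was 3. The oncofetal list was mixed, with 4 of 20 tested members higher and 4 lower. PEG10 (1.10 ± 0.14, adjusted p = 0.000104) was higher in sgCtrl, while KRT19, SOX4 (-1.98 ± 0.19) and AKR1B10 (-4.95 ± 0.37) were lower. GPC3 differed by -0.11 ± 0.11 and did not pass the test. The count of higher oncofetal members was 1 without sgCtrl-3 and 2 without either of the other sgCtrl libraries.

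Cholesterol synthesis was the metabolic list with the most members higher in sgCtrl, 12 of 20 with 0 lower. HMGCS1 (1.24 ± 0.11, adjusted p = 4.17e-06), ACAT2 (0.80 ± 0.12, adjusted p = 0.000474) and SQLE (0.74 ± 0.12, adjusted p = 0.00101) were among them, and 8 to 14 members were called when 1 of the 9 libraries was left out. Bile acid genes followed with 5 of 16 higher, CYP7A1 (3.47 ± 0.44) with 4.32 to 8.96 CPM against 0.237 to 1.27 CPM, and 2 lower, ABCC2 and SLC51B. CYP7A1 passed the expression filter only through sgCtrl, where it was higher. Without sgCtrl-3 the number higher was 3. The call of SLC51B was lost with limma-voom and when any library but library 3 of sgKEAP1-2 was left out, while that of ABCC2 was kept in all of these. Fatty acid oxidation had 4 higher, FABP1 (1.48 ± 0.35, lost without any 1 sgCtrl library or library 3 of sgKEAP1-2) among them, and 2 lower of 23, and fatty acid synthesis 3 and 1 of 20. The 4 oxidation genes came down to 1 without sgCtrl-1 or sgCtrl-3. Glycolysis pointed the other way with 6 of 20 lower in sgCtrl and 0 higher, such as PKM (-0.70 ± 0.12), SLC2A1 (-1.19 ± 0.24) and PFKP (-3.18 ± 0.36). Drug metabolism genes were lower in 7 of 16 and higher in 1 (POR, a call lost without sgCtrl-2), with GSTA2 at 5.59 to 7.28 CPM against 58.6 to 124 CPM (-3.87 ± 0.27) and UGT1A1 at up to 2 counts against 5.71 to 10.7 CPM. UGT1A1 passed the expression filter only through the KO libraries, where it was higher. Of 24 urea cycle and amino acid genes 3 were higher and 2 lower, and without sgCtrl-3 these were 1 and 1.

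Among stress lists, metallothioneins were higher in sgCtrl in 6 of 9 members, in each of the fits without 1 sgCtrl library as well, with MT1F at 288 to 463 CPM against 78.3 to 155 CPM (1.59 ± 0.18, adjusted p = 9.6e-05). NRF2 list members were lower in sgCtrl in 24 of 32, as with NQO1 (-1.57 ± 0.14, adjusted p = 2.82e-06), and the only member called higher was NFE2L2 itself (0.44 ± 0.12, adjusted p = 0.023), whose call was lost without sgCtrl-1, sgCtrl-3 or the first sgKEAP1-1 library. Lysosomal genes were lower in 10 of 28 and higher in 0, among them SQSTM1 (-1.46 ± 0.20) and GLA (-1.63 ± 0.17). The endoplasmic reticulum list had 1 higher and 2 lower of 27, chaperones 0 and 1 of 16, p53 targets 0 and 2 of 24, interferon genes 0 and 2 of 11 and proliferation genes 1 and 1 of 31. Without sgCtrl-1 the number of endoplasmic reticulum genes lower was 0, and without any 1 sgCtrl library that of p53 targets lower was 1. Chaperones lower numbered 2 without sgCtrl-3. The number of proliferation genes higher was 5 without library 3 of sgKEAP1-1 and 0 without sgCtrl-2, sgCtrl-3 or library 1 or 3 of sgKEAP1-2. In a fit with a term for the replicate number (a replicate block) it was 10, though the numbers were not taken as pairs. Hypoxia genes had 0 and 2 of 17, and the number lower was 5 without sgCtrl-2 and 5 with the replicate block. It was 1 without library 3 of sgKEAP1-1 or library 1 or 2 of sgKEAP1-2. CA12, a carbonic anhydrase, had no count in any sgCtrl library and 0.950 to 7.60 CPM in the KO libraries. It therefore passed the expression filter only through the KO libraries. Of 78 ribosomal genes tested, 0 were called by edgeR's quasi-likelihood test in either direction, and 0 had an unadjusted p under 0.05. Where a list above had 0 calls in a direction, limma-voom and DESeq2 gave 0 there as well. At an unadjusted p under 0.05, edgeR's test gave 1 member each for higher glycolysis, p53 and interferon genes and for lower metallothioneins, and 0 for the others.

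**Figure D5:**
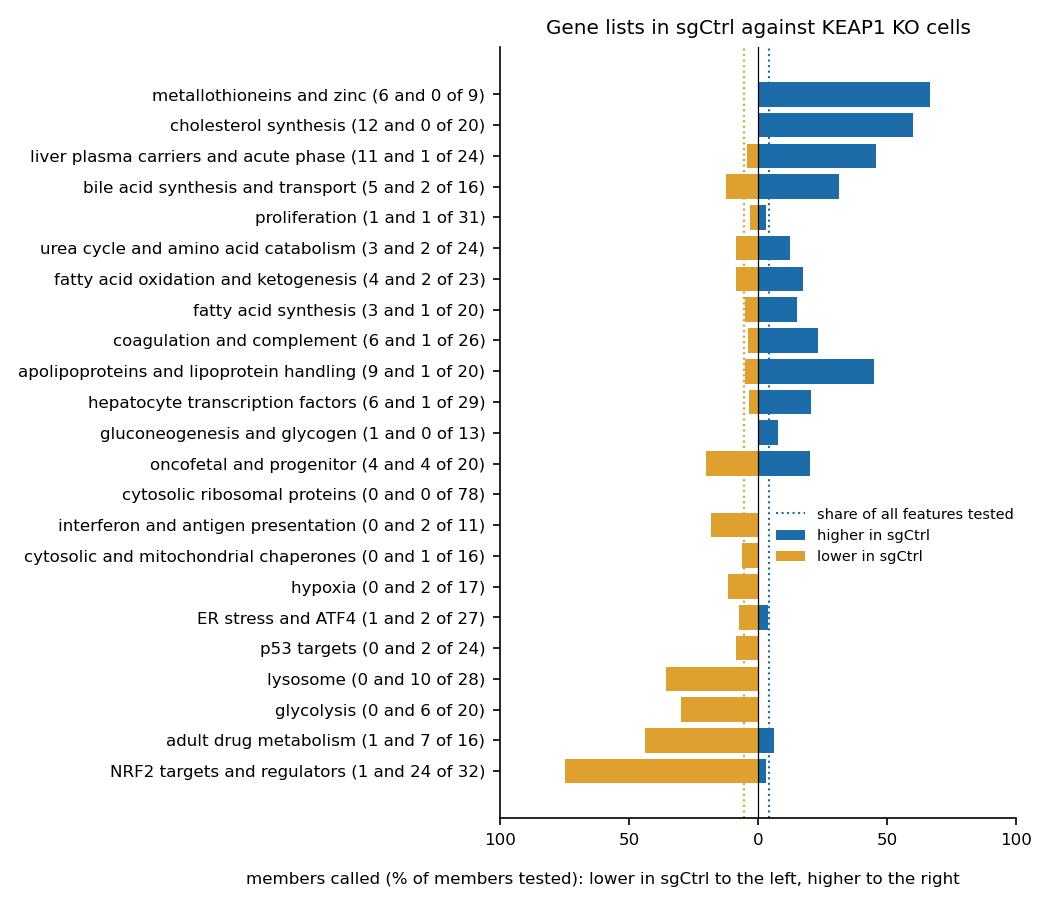
Share of the tested members of each gene list called higher (right, blue) or lower (left, orange) in sgCtrl than in KEAP1 KO cells, in percent, with dotted lines at the shares over all features tested. Metallothioneins and cholesterol synthesis extend farthest to the right and NRF2 list members farthest to the left.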

How the data were processed

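Gene counts of 9 QuantSeq libraries were used as deposited. The authors trimmed reads (cutadapt 1.16), aligned them (STAR 2.7.5b) and counted them per gene (featureCounts 1.6.3), and no replicates were pooled. The submitters' processing notes list hg38 whereas the methods name GRCh37 for these reads, and the annotation and strand setting are not given in the sources used here. The 1052 features without an Entrez number (1.34% of reads) were left out of totals and tests, a choice made after seeing the file. CPM is the count divided by the library's counted reads on numbered features, scaled to 1e+06.

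The 3 sgCtrl libraries were ranked by mean CPM. They were compared with the 6 KEAP1 KO libraries in edgeR 4.0.16 (R 4.3.3) with TMM scaling, filterByExpr, the robust quasi-likelihood test and Benjamini-Hochberg adjustment at 0.05. On simulated counts for 10744 genes of that comparison, the test found 69 of 97 genes changed by 1 on the log2 scale and 100 of 100 changed by 2, with 12 false calls of 181. Depth limits precision, and 3 counts equal 0.798 to 0.996 CPM in sgCtrl. That floor covers counting error only. limma 3.58.1 and DESeq2 1.42.0 were alternatives.

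Genes named are the 30 highest, the 5 highest and floor members of each list, the 3 members of each list called with the smallest p, the 10 most variable genes of at least 50 CPM, AFP, ALB, HNF4A, KEAP1, NFE2L2 and PPP1R12C. Other genes named were chosen after their values were seen. Members and lists were chosen with earlier results of these data known. Some of the genes that this rule names are not reported here.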

Additional observations from a re-analysis of the deposited data

How the results depend on the processing

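The number of features higher in sgCtrl was 226 to 536 and of those lower 367 to 700 when 1 of the 9 libraries was left out. A fit with a replicate block gave 762 and 847, of which 453 and 610 were shared with the unblocked calls. Under that block 10 proliferation genes were higher (against 1), 6 urea cycle and amino acid genes and 6 fatty acid synthesis genes higher (against 3 each) and 5 hypoxia genes lower (against 2). Lower calls rose to 4 plasma carriers, 3 apolipoprotein genes, 2 clotting and complement genes and 2 chaperones (against 1 each). Higher calls rose to 3 drug metabolism genes and 3 gluconeogenesis genes (against 1 each). AHSG, APOA2, DHRS2 and MT2A gained a call and FABP1 lost it. The numbers were not taken as pairs in the main fit, because no label says what same-numbered libraries share. Of the 9 same-numbered pairs 7 correlated over 0.1 in their deviations (mean 0.23, from -0.01 to 0.52). Among the 18 differently numbered pairs 3 did so, with a mean of -0.12 (from -0.40 to 0.27). Other scalings, filters and tools (DESeq2, limma-voom, library totals, 3 groups, no filter, at least 10 counts in every library) kept both counts within 1.5 times. DESeq2 gave 527 and 713. Keeping features without a number, added after seeing the data, gave 465 and 624. Of 143 list members called, 90 kept their call under every alternative that tested them, 53 lost it under at least 1 and 0 reversed. At a limit of 5 CPM instead of 10, the interferon list had 10 expressed members, the fibroblast markers 2 and the immune markers 2. Leaving out mitochondrially encoded features could not be run, as 0 features carry such a symbol. Below 10 CPM, depth limits what can be told between libraries.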
